A study of Patiria miniata with 16 samples.

Results

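The comparison set bat sea star (Patiria miniata) embryos kept in 1.2 mM beta-aminopropionitrile (BAPN) against embryos kept in 0.8 mM, across all genes. The members were the 8 libraries collected while the embryos were still in BAPN, 4 at each dose, out of 16 libraries in the series. At each dose 1 library came from each of 4 treatment windows. These were hatched blastula until day 2, mid gastrula until day 3, hatched blastula until day 4, and mid gastrula until day 4. The other 8 libraries served as background. Of these, 2 came from embryos allowed to recover until day 4 after BAPN ended at day 2, 1 at each dose. The remaining 6 were untreated, and the labels tie each to a single treated library, 3 to a 1.2 mM library and 3 to a 0.8 mM library. All embryos were wild type, each library pooled the polyA RNA of whole embryos, and the window from mid gastrula until day 4 had no control tied to it. Nothing in the labels says that the libraries are from different cultures, and the p-values reflect the spread among libraries alone. In whole embryos, fewer cells of a type and less RNA per cell cannot be told apart.

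BAPN irreversibly inhibits lysyl oxidases, copper enzymes that oxidise lysine side chains of collagen and elastin so that the fibres can cross-link. A sea star embryo builds a collagen- and laminin-rich basal lamina and blastocoel matrix, through which mesenchyme cells migrate while the gut and the coelomic pouches form. Lysyl oxidases are the known targets of the inhibitor, procollagen C-proteinases of the BMP1 family act on the same substrate, and matrix metalloproteinases break collagen down. The dose comparison asked whether more inhibitor gave a different transcriptome within the same window.

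Total counts ran from 9945801 to 14383817 over the 16 libraries and from 11264403 to 12730755 over the 8 in BAPN. Ribosomal RNA genes took 0.561%, 0.488%, 0.390% and 0.806% of counts at 1.2 mM, in the order of windows above, and 0.962%, 0.323%, 0.672% and 0.977% at 0.8 mM. The day 4 control of a 1.2 mM library stood at 3.20%, and the recovery libraries at 1.34% after 1.2 mM and 2.02% after 0.8 mM. The library at 1.2 mM from blastula until day 4 had the fewest genes with a count, 15908, against 17446 in its 0.8 mM partner. Levels are given as CPM, counts scaled to a common library total. Differences are log2 values of 1.2 mM over 0.8 mM with the window in the model, ± the standard error (SE), with n = 4 libraries per dose, and adjusted p-values are Benjamini-Hochberg values over all genes tested.

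Very few genes passed the test. Of 14599 genes tested with edgeR, 2 were called at an adjusted p under 0.05 (0.0137%), both higher at 1.2 mM, and 0 were called lower (0%). At an unadjusted p under 0.05 there were 1177 genes (8.06%), 612 of them higher and 565 lower at 1.2 mM. DESeq2 called 36 genes higher and 26 lower. Over all genes the median difference was -0.01 and the median size of a difference was 0.17, on the log2 scale.

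The largest of the called differences belonged to a dnaJ homolog subfamily B member 4-like gene (LOC119722491, scaffold NW_024037053.1, 4247683 to 4253733, minus strand, Pmin_3.0), which encodes an HSP40-type co-chaperone that hands unfolded clients to HSP70. It had 32.9, 36.4, 147.7 and 33.7 CPM at 1.2 mM in the order of windows above, against 11.5, 12.1, 50.3 and 16.4 CPM at 0.8 mM. Every 1.2 mM library was above the 0.8 mM library of its window, while the ranges of the doses overlapped across windows, with both libraries from blastula until day 4 above the rest of their dose. The gene rose by 1.43 ± 0.14 at 1.2 mM (95% interval 1.13 to 1.73, adjusted p = 4.6e-04, higher in 4 of 4 windows). It was called in 14 of 15 alternative analyses, and not in the one without the window in the model. The untreated libraries tied to 1.2 mM had 78.6, 81.9 and 90.3 CPM on days 2, 3 and 4, and those tied to 0.8 mM had 54.7, 100.7 and 99.6 CPM. Against its own controls the gene fell by 0.63 ± 0.15 at 1.2 mM (adjusted p = 0.00242) and fell by 2.14 ± 0.16 at 0.8 mM (adjusted p = 4.0e-08), over 3 windows. The dose difference in BAPN minus that between the controls was 1.52 ± 0.21, with an adjusted p of 0.0836. After recovery the gene had 96.2 CPM following 1.2 mM and 78.8 CPM following 0.8 mM.

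The other called gene is uncharacterized (LOC119732483, NW_024037063.1, 607110 to 624569, minus strand) and was named after its values were seen. It had 106.9, 42.01, 133.2 and 70.6 CPM at 1.2 mM against 48.7, 25.01, 61.2 and 35.1 CPM at 0.8 mM. It rose by 1.01 ± 0.12 at 1.2 mM (95% interval 0.76 to 1.26, adjusted p = 0.00168), again with each 1.2 mM library above its partner and with ranges that overlapped across windows. BAPN raised it at both doses, by 3.51 ± 0.21 at 1.2 mM (adjusted p = 4.6e-09) and by 2.24 ± 0.21 at 0.8 mM (adjusted p = 4.4e-07) over the controls of each. The day 3 and day 4 controls held 4.87 and 5.40 CPM where tied to 1.2 mM and 5.37 and 3.93 CPM where tied to 0.8 mM. The recovery libraries, at 7.35 CPM after 1.2 mM and 6.98 CPM after 0.8 mM, lay just above those controls and below the day 2 controls, which held 14.9 CPM where tied to 1.2 mM and 26.7 CPM where tied to 0.8 mM. The dose difference in BAPN minus that between the controls was 1.27 ± 0.29 (adjusted p = 0.976). The call was lost without the window in the model and in the 3 windows with controls (adjusted p = 0.207; over the 15 alternatives it ran from 1.0e-11 to 1.0).

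**Figure D1:**
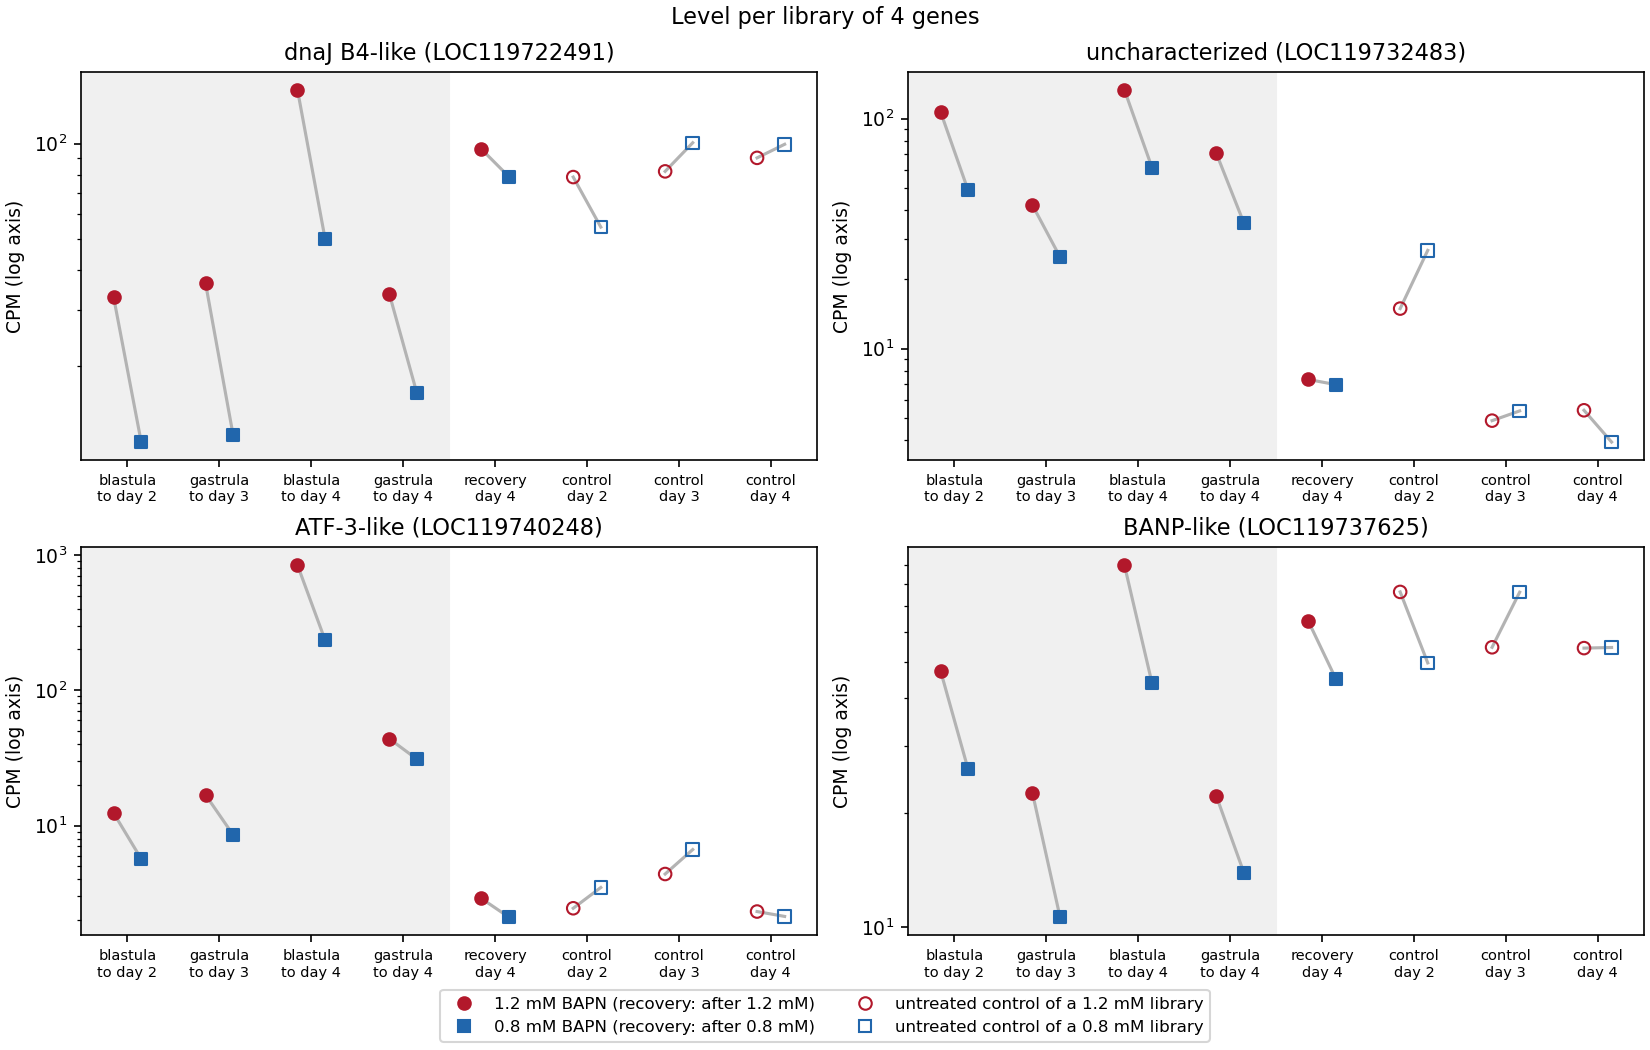
Level in CPM, on a log axis, of 4 genes in each library, with 1.2 mM (circles) left of 0.8 mM (squares) and a grey line joining the libraries of a window; filled points are libraries in BAPN (shaded) or in recovery, and open points are untreated controls tied to a library of that dose. The dnaJ B4-like gene had 147.7 CPM at 1.2 mM and 50.3 CPM at 0.8 mM from blastula until day 4, and in all 4 BAPN windows the circle lies above its square for each of the 4 genes.

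No other dnaJ gene was called. Of 31 dnaJ genes tested, 1 passed, 20 had a positive difference, and the median was 0.07. The ER-resident dnaJ C10-like gene (LOC119740963) differed by 0.35 ± 0.11 (adjusted p = 0.388), the dnaJ C7-like gene (LOC119740981) by 0.35 ± 0.12 (adjusted p = 0.430) and the stress-induced dnaJ B9-like gene (LOC119726540) by 0.45 ± 0.17 (adjusted p = 0.501). Of 16 heat shock genes tested 0 were called, beside 0.0137% of all genes, and their median was 0.13. At an unadjusted p under 0.05, 3 of them were higher and 1 was lower, beside 612 and 565 of all 14599 genes. The heat shock 70 kDa protein IV-like gene (LOC119734728) had 8.78, 19.6, 112 and 32.5 CPM at 1.2 mM against 13.3, 11.3, 32.4 and 18.1 CPM at 0.8 mM. It was higher at 1.2 mM in 3 of 4 windows, with a difference of 0.78 ± 0.32 (adjusted p = 0.582). The medians of the heat shock list within windows were -0.16, 0.12, 0.42 and 0.11, so the pair from blastula until day 4 stood highest and the pair from blastula until day 2 lowest.

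A further 7 genes had an adjusted p between the threshold and 0.10, and all of them had higher values at 1.2 mM in 4 of 4 windows. EdgeR called none of them. The 6 named here, after their values were seen, were all called by DESeq2, with adjusted p-values of 1.7e-04 to 6.7e-04. The p-values below are edgeR's. Of the 14599 genes, 1201 (8.23%) were higher and 1326 (9.08%) lower at 1.2 mM in 4 of 4 windows. With the window in the model, a small p favours genes on the same side in each window. For genes picked by p, here and elsewhere in this report, that trait is therefore no added evidence. The BANP-like gene (LOC119737625), a BEN-domain DNA-binding regulator in vertebrates, had 47.3, 22.5, 89.8 and 22.1 CPM at 1.2 mM against 26.02, 10.6, 43.9 and 13.9 CPM at 0.8 mM. Its difference was 0.92 ± 0.14 (95% interval 0.61 to 1.23, adjusted p = 0.0532), and 7 of the 15 alternative analyses called it. As with the dnaJ B4-like gene, its response to BAPN was smaller at 1.2 mM over the 3 windows with controls: against its controls it fell by 0.48 ± 0.17 at 1.2 mM (adjusted p = 0.0334) and fell by 1.41 ± 0.18 at 0.8 mM (adjusted p = 1.3e-05). The difference of these responses was 0.93 ± 0.25 (adjusted p = 0.978). The ISL-1-like gene (LOC119745412), a LIM-homeodomain factor of neurons and foregut, had 59.6, 44.5, 57.6 and 33.9 CPM at 1.2 mM against 35.2, 26.3, 36.02 and 16.1 CPM at 0.8 mM, a difference of 0.82 ± 0.14 (adjusted p = 0.0597). The RNF217-like gene (LOC119724646), a ubiquitin ligase, differed by 0.73 ± 0.12 (adjusted p = 0.0597). The SOX-10-like gene (LOC119735951), an HMG-box transcription factor, had 101, 69.1, 482 and 129.6 CPM at 1.2 mM against 62.9, 49.9, 389.5 and 75.8 CPM at 0.8 mM, a difference of 0.56 ± 0.10 (adjusted p = 0.0727). The ATF-2-like gene (LOC119720484), a bZIP transcription factor downstream of stress kinases, and the clarinet-like gene (LOC119727745) each differed by 0.56 ± 0.10 (adjusted p = 0.0727). The ATF-2-like gene had 58.6, 44.9 and 82.9 CPM in the untreated libraries tied to 1.2 mM on days 2, 3 and 4. In those tied to 0.8 mM it had 22.8, 57.8 and 64.1 CPM. Its dose difference in BAPN minus that between the controls was 0.17 ± 0.35 (95% interval -0.62 to 0.96, adjusted p = 0.993).

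Another bZIP factor, the ATF-3-like gene (LOC119740248, NW_024037072.1, 29286693 to 29297728, plus strand), is related to ATF3, an immediate stress-response gene in vertebrates, and was named after its values were seen. It had 12.4, 16.8, 840.6 and 43.7 CPM at 1.2 mM, against 5.67, 8.53, 234.7 and 30.9 CPM at 0.8 mM, while all controls and recovery libraries held 2.10 to 6.64 CPM. The 1.2 mM library was the higher one in 4 of 4 windows, with a difference of 1.16 ± 0.19 (95% interval 0.74 to 1.57) that missed the threshold with edgeR (adjusted p = 0.110) and passed it with DESeq2 (adjusted p = 5.0e-07). Leaving out 1 window at a time gave 0.85 to 1.41, the lower value without the pair from blastula until day 4. BAPN raised it by 4.28 ± 0.20 at 1.2 mM (adjusted p = 2.7e-10) and by 2.49 ± 0.20 at 0.8 mM (adjusted p = 1.1e-07) over the controls of each dose. The difference of these responses was 1.79 ± 0.28 (95% interval 1.18 to 2.40, adjusted p = 0.153).

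Of the other genes that edgeR did not call, 8 that encode regulators or signalling proteins are given here, picked after their values were seen. DESeq2 called 5 of them, namely TBX2-like (adjusted p = 4.1e-04), SREBP1-like (6.8e-04), Wnt-8b-like (0.00248), forkhead box B1-like (0.00305) and Smad6-like (0.00586). The TBX2-like gene (LOC119727010), a T-box repressor, had 723, 691, 808 and 468 CPM at 1.2 mM against 443, 363, 739 and 315 CPM at 0.8 mM, a difference of 0.59 ± 0.11 (adjusted p = 0.110). The Smad6-like gene (LOC119745554), an intracellular inhibitor of BMP signalling, differed by 0.44 ± 0.09 (adjusted p = 0.171), and the BMP2-like ligand gene (LOC119739857) by 0.37 ± 0.10 (adjusted p = 0.299), both higher at 1.2 mM in 4 of 4 windows. The Wnt-8b-like ligand gene (LOC119730682) had 780, 372, 1277 and 577 CPM at 1.2 mM against 659, 296, 897 and 389 CPM at 0.8 mM, a difference of 0.42 ± 0.09 (adjusted p = 0.171). The SREBP1-like gene (LOC119727598), which drives lipid synthesis, differed by 0.42 ± 0.09 (adjusted p = 0.171). On the other side, the forkhead box B1-like gene (LOC119721710), a transcription factor of the embryonic nervous system in vertebrates, had 159, 97.5, 25.2 and 51.3 CPM at 1.2 mM against 282, 137, 43.2 and 61.7 CPM at 0.8 mM. Its difference was -0.58 ± 0.11 (adjusted p = 0.110). The frizzled-5-like gene (LOC119721237), a Wnt receptor, differed by -0.42 ± 0.13 (adjusted p = 0.426) and the dickkopf-3-like gene (LOC119745558), a secreted protein of the Wnt antagonist family, by -0.82 ± 0.24 (adjusted p = 0.353), both lower at 1.2 mM in 4 of 4 windows.

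A pair of metabolic genes, also picked after their values were seen, had negative differences that edgeR did not call and DESeq2 did. The cystine/glutamate transporter-like gene (LOC119739298), which imports cystine for glutathione synthesis, had 84.9, 76.4, 11.2 and 39.1 CPM at 1.2 mM against 155, 133, 22.3 and 43.6 CPM at 0.8 mM, a difference of -0.69 ± 0.14 (adjusted p = 0.118 with edgeR, 0.00323 with DESeq2). Its untreated libraries had 48.4, 64.9 and 20.9 CPM where tied to 1.2 mM and 111, 39.8 and 32.7 CPM where tied to 0.8 mM. For this gene the dose difference in BAPN minus that between the controls was -0.51 ± 0.43 (95% interval -1.48 to 0.46, adjusted p = 0.978). The transaldolase-like gene (LOC119722600), an enzyme of the pentose phosphate pathway, had 10.1, 9.08, 25.02 and 8.62 CPM at 1.2 mM against 32.1, 12.4, 37.99 and 34.8 CPM at 0.8 mM, a difference of -1.18 ± 0.24 (adjusted p = 0.161 with edgeR, 0.00440 with DESeq2). Its untreated libraries differed as well, with 14.2, 83.9 and 19.0 CPM where tied to 1.2 mM and 80.5, 91.0 and 107 CPM where tied to 0.8 mM, a difference of -1.69 ± 0.55 (unadjusted p = 0.0219, adjusted p = 1.0). The dose difference in BAPN minus that between the controls was 0.75 ± 0.78 (95% interval -1.15 to 2.66, adjusted p = 0.978). The list of foreign compound and redox genes had 0 of 191 tested genes called with edgeR, beside 0.0137% of all genes, and a median of -0.06. At an unadjusted p under 0.05, 8 of its genes were higher and 4 lower, beside 612 and 565 of all 14599 genes.

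**Figure D2:**
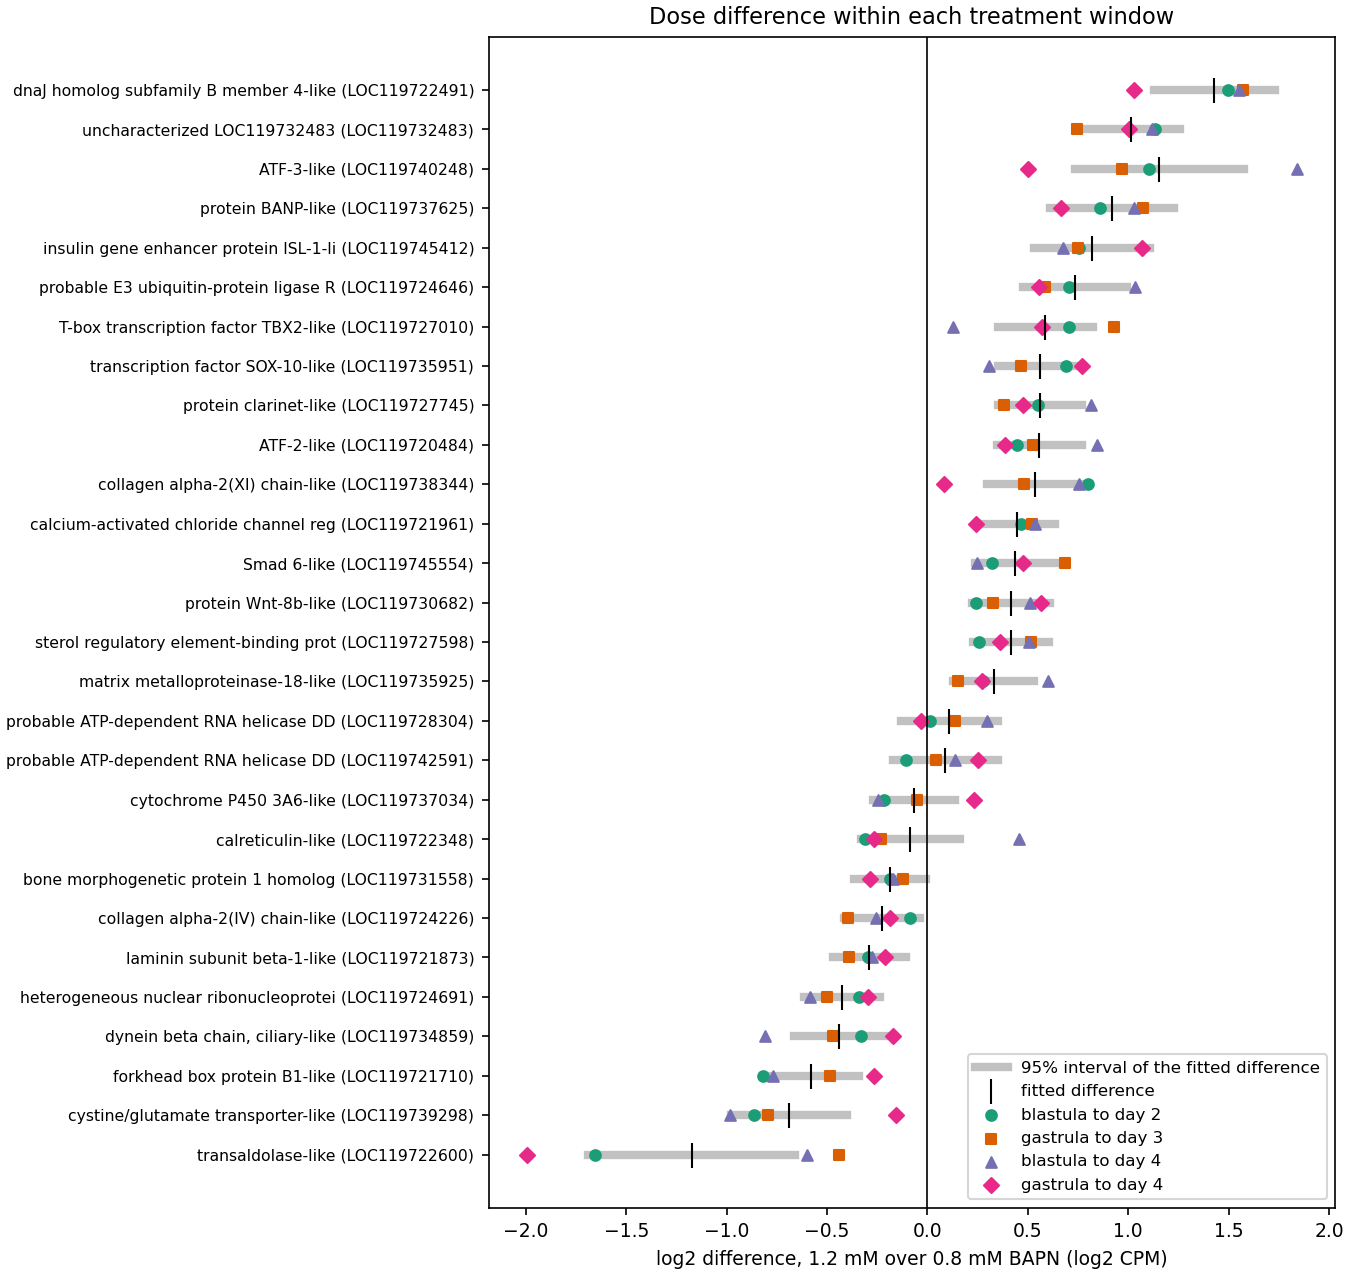
Difference of 1.2 mM over 0.8 mM BAPN on the log2 scale for 28 genes: the 4 symbols are the windows, the black tick is the fitted difference and the grey bar its 95% interval. The dnaJ B4-like gene at the top differed by 1.43 and the transaldolase-like gene at the bottom by -1.18, while both DDX4 genes, calreticulin and cytochrome P450 3A6 have intervals that hold 0.

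The genes around collagen cross-linking, which the drug acts on, were listed whatever their values. The lysyl oxidase homolog 2A-like gene LOC119735518 had 5.20, 1.90, 5.65 and 0.363 CPM at 1.2 mM against 5.06, 4.68, 4.23 and 2.67 CPM at 0.8 mM, and differed by -0.74 ± 0.54 (95% interval -1.89 to 0.41, adjusted p = 0.768). Its paralog LOC119738367 differed by 0.44 ± 0.83 (95% interval -1.33 to 2.21, adjusted p = 0.930). At these low levels the first interval reaches past a 2-fold lower value at 1.2 mM, and the second reaches past 2-fold in both directions. The BMP1 homolog LOC119731558, a procollagen C-proteinase, had 328, 317, 144 and 170 CPM at 1.2 mM against 374, 344, 162 and 207 CPM at 0.8 mM. It lay lower at 1.2 mM in 4 of 4 windows, by -0.19 ± 0.09 (95% interval -0.37 to -0.01, adjusted p = 0.603). Of 7 BMP1 family genes 3 passed the filter on low counts, and 0 were called, beside 0.0137% of all genes tested.

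The collagenase family member matrix metalloproteinase-18-like (LOC119735925) had 711, 592, 925 and 565 CPM at 1.2 mM against 586, 534, 610 and 468 CPM at 0.8 mM, where controls and recovery libraries held 2.07 to 36.1 CPM. Its difference between doses was 0.33 ± 0.09 (95% interval 0.13 to 0.53, adjusted p = 0.346). The rise over the controls of each dose was 5.85 ± 0.13 at 1.2 mM (adjusted p = 6.9e-13) and 5.94 ± 0.14 at 0.8 mM (adjusted p = 1.2e-12), a difference of -0.09 (95% interval -0.45 to 0.27). A second copy (LOC119727619) differed by 0.12 ± 0.11 between doses (adjusted p = 0.839). The collagenase 3-like gene (LOC119742874), picked after its values were seen, differed by 0.44 ± 0.13 (adjusted p = 0.374).

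The structural matrix genes named here were picked after their values were seen. Among them, the fibrillar collagen alpha-2(XI)-like gene (LOC119738344) had 305, 234, 233 and 137 CPM at 1.2 mM against 175, 168, 138 and 130 CPM at 0.8 mM, a difference of 0.54 ± 0.11 (adjusted p = 0.161 with edgeR, 0.00654 with DESeq2). The basement membrane collagen alpha-2(IV)-like gene (LOC119724226) differed by -0.23 ± 0.09 (adjusted p = 0.521), the laminin beta-1-like gene (LOC119721873) by -0.29 ± 0.09 (adjusted p = 0.353) and a laminin alpha-like gene (LOC119728984) by -0.26 ± 0.09 (adjusted p = 0.452). Each of these 3 basement membrane genes was lower at 1.2 mM in 4 of 4 windows, none of them passed the test, and each interval lies inside a 2-fold difference. They were picked for small p-values within their lists, which favours genes on the same side in each window. Of 88 genes in the list of other matrix proteins, 13 were lower and 3 higher at 1.2 mM in 4 of 4 windows. Of 17 collagen genes 1 was lower and 1 higher, beside 9.08% lower and 8.23% higher of all genes.

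Germline genes, about which the series also asks, had no called difference between the doses, as held for all but 2 of the 14599 genes tested. The DDX4 (vasa) helicase gene LOC119728304 had 45.0, 57.0, 86.0 and 73.6 CPM at 1.2 mM against 44.6, 51.8, 70.1 and 75.3 CPM at 0.8 mM, a difference of 0.11 ± 0.11 (95% interval -0.13 to 0.35, adjusted p = 0.859). The second DDX4 gene, LOC119742591, differed by 0.09 ± 0.12 (95% interval -0.17 to 0.35, adjusted p = 0.901). The nanos 3-like gene (LOC119721081), a translational repressor of germ cells, had 28.9, 9.90, 14.5 and 6.08 CPM at 1.2 mM against 27.7, 6.19, 6.39 and 6.91 CPM at 0.8 mM, a difference of 0.43 ± 0.25 (95% interval -0.10 to 0.96, adjusted p = 0.689). BAPN raised the first DDX4 gene by 1.02 ± 0.13 at 1.2 mM (adjusted p = 1.7e-05) and by 0.96 ± 0.14 at 0.8 mM (adjusted p = 3.6e-05) over the controls of each. The piwi-like 1 gene (LOC119719485), a small-RNA guided silencer of transposons, differed by -0.53 ± 0.22 (adjusted p = 0.551) and was picked after its values were seen.

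Cytochrome P450 3A genes encode monooxygenases of foreign compounds, and several rose strongly in BAPN while others fell. The 3A6-like copy (LOC119737034) had 312, 322, 380 and 474 CPM at 1.2 mM against 363, 334, 451 and 405 CPM at 0.8 mM, a difference of -0.07 ± 0.10 (95% interval -0.27 to 0.14, adjusted p = 0.908). Its rise over the controls was 6.90 ± 0.18 at 1.2 mM (adjusted p = 2.0e-12) and 7.08 ± 0.18 at 0.8 mM (adjusted p = 1.8e-12). The 3A24-like copy (LOC119737035) differed by 0.09 ± 0.10 and the 3A29-like copy (LOC119725275) by 0.07 ± 0.09 between doses, with adjusted p-values of 0.866 and 0.892 and signs that changed when single windows were left out. The 3A31-like copy (LOC119745178) differed by -0.37 ± 0.12 (adjusted p = 0.426). Its change over the controls of each dose was -2.30 ± 0.15 at 1.2 mM (adjusted p = 9.5e-09) and -1.71 ± 0.14 at 0.8 mM (adjusted p = 2.0e-07). The difference of these responses was -0.59 ± 0.20 and was not called (adjusted p = 0.978 with edgeR). By window the 3A31-like copy differed between doses by -0.77, 0.02, -0.62 and -0.21, so mostly in the blastula windows. Of 35 genes named P450 3A 24 were tested, with a median of 0.07, and 0 were called, beside 0.0137% of all genes. An unadjusted p under 0.05 held for 2 of them, beside 8.06% of all genes. Reads shared between copies can blur the values of single P450 3A, collagen and MMP-18 genes.

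For 3 genes that lost much of their level in BAPN, no dose difference passed the test. The gene of striated muscle myosin heavy chain (LOC119735028) had 0.341, 14.9, 2.32 and 5.17 CPM at 1.2 mM against 0, 14.7, 6.11 and 4.00 CPM at 0.8 mM, a difference of -0.09 ± 0.47 (95% interval -1.09 to 0.90, adjusted p = 0.977). PCNA (LOC119732257), which clamps DNA polymerase to its template, differed by -0.04 ± 0.24 (95% interval -0.55 to 0.47, adjusted p = 0.978) and calreticulin (LOC119722348), a calcium-binding chaperone of the ER, by -0.08 ± 0.12 (95% interval -0.33 to 0.16, adjusted p = 0.901). The sign of the myosin and PCNA differences changed when single windows were left out.

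Described by lists of product names, 1449 genes in 27 lists were tested and 0 were called with edgeR, beside 2 of all 14599 genes (0.0137%). With so small a share over all genes, 0 calls in a list say little about its members. The list medians ran from -0.14 for cilia to 0.19 for nodal and BMP signalling, beside -0.01 for all genes. Of 109 axonemal and ciliary genes 25 (22.9%) had a positive difference, against 48.3% of all genes. At an unadjusted p under 0.05, 16 ciliary genes were lower and 1 was higher, beside 565 lower and 612 higher of all 14599 genes. The ciliary dynein beta chain gene LOC119734859, a motor of ciliary beating, had 138, 151, 65.8 and 131 CPM at 1.2 mM against 174, 210, 115 and 148 CPM at 0.8 mM, a difference of -0.44 ± 0.11 (adjusted p = 0.260 with edgeR, 0.0386 with DESeq2). The axonemal dynein heavy chain 5-like gene (LOC119739113) differed by -0.39 ± 0.10 (adjusted p = 0.299). The medians of the ciliary list within windows were -0.10, -0.04, -0.27 and -0.18, and 0.09 between the recovery libraries.

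Of 23 nodal and BMP genes 17 (73.9%) had a positive difference, and the window medians were 0.17, 0.20, 0.17 and 0.10. At an unadjusted p under 0.05, 4 of them were higher and 1 was lower, beside 612 and 565 of all 14599 genes. The member on the other side was the BMP4-like ligand gene (LOC119732060), at -0.57 ± 0.18 (adjusted p = 0.422). Of 29 Wnt genes 18 had a positive difference, with a median of 0.09 and window medians of 0.07 to 0.15. The 17 collagen genes had a median of -0.08 and a negative median in each window. In these 4 lists the median kept its side of 0 in all 4 windows, and in the other 23 it did not. The median of all genes was also below 0 in each window, at -0.002, -0.0008, -0.028 and -0.004. Whether 4 of 27 lists is more than chance gives was not tested. Ribosomal protein genes show how a list can differ within windows: 63 of 70 had a positive fitted difference, with a median of 0.08, but the window medians were -0.16, 0.42, -0.18 and 0.18. The 63 cell cycle genes had a median of -0.04, with window medians of 0.11, 0.02, -0.31 and -0.05. Within that list the ribonucleotide reductase M2 B-like gene (LOC119729041) differed by -0.44 ± 0.11 (adjusted p = 0.256 with edgeR, 0.0380 with DESeq2) and the MCM6-like helicase gene (LOC119718905) by 0.40 ± 0.11 (adjusted p = 0.299). Muscle genes had a median of -0.04 (34 tested), neuron genes -0.02 (34), gut genes 0.02 (66) and mesenchyme and immune genes -0.01 (86), so these 4 medians lay within 0.05 of 0.

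**Figure D3:**
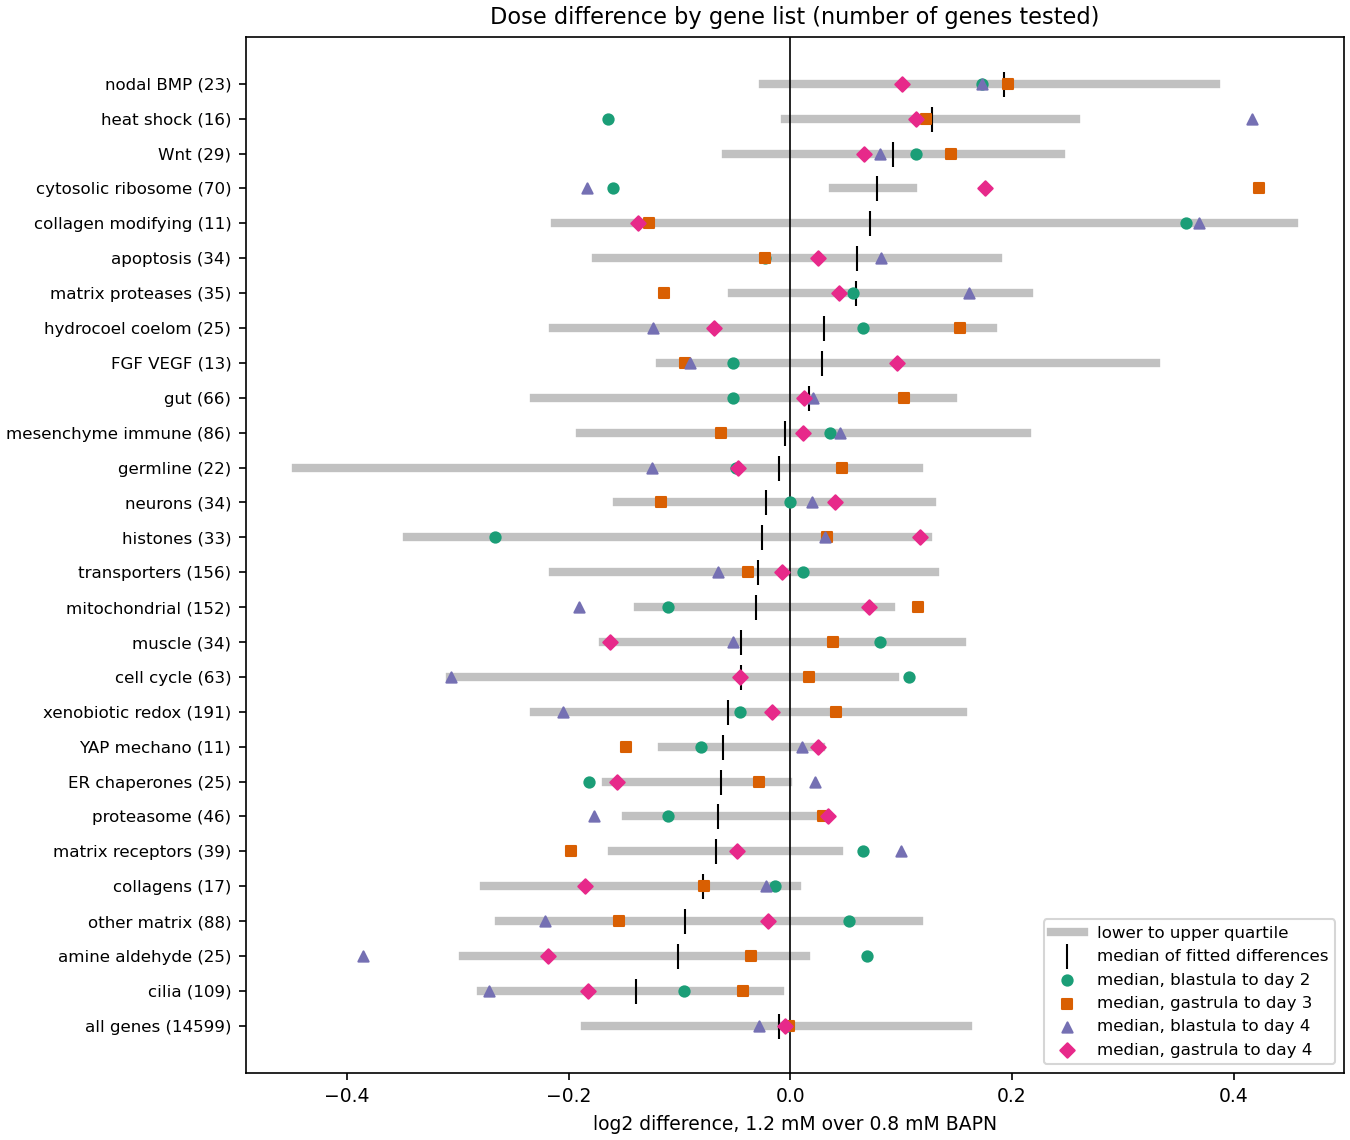
Differences of 1.2 mM over 0.8 mM BAPN on the log2 scale for 27 gene lists and for all genes, with the number of genes tested in brackets: the black tick is the median of the fitted differences, the grey bar the span from the lower to the upper quartile, and the symbols the medians within the 4 windows. The ciliary list had the lowest median (-0.14) and nodal and BMP signalling the highest (0.19), beside -0.01 for all 14599 genes.

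Set against their own untreated libraries in the 3 windows that have them, both doses moved much of the transcriptome. Of 16373 genes tested with edgeR, 8061 were called at 1.2 mM (49.2%), 3701 of them higher (22.6%) and 4360 lower (26.6%), and 7671 at 0.8 mM (46.9%), 3726 higher (22.8%) and 3945 lower (24.1%). With scaling by total counts alone the split at 0.8 mM was 2889 higher and 5013 lower, and the median of all genes moved to -0.28, against -0.07 with TMM. The 6675 genes called at both doses made up 82.8% of the 1.2 mM list and 87.0% of the 0.8 mM list, and 6674 of them changed in the same direction. Across the 16373 genes the responses correlated at r = 0.896, a description over genes that share libraries and are not independent replicates. Among genes called at both doses the median size of the response was 1.35 at 1.2 mM and 1.29 at 0.8 mM. When the difference of the responses was tested gene by gene, edgeR called 0 of 16373, with 727 (4.44%) at an unadjusted p under 0.05, and DESeq2 called 4.

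**Figure D4:**
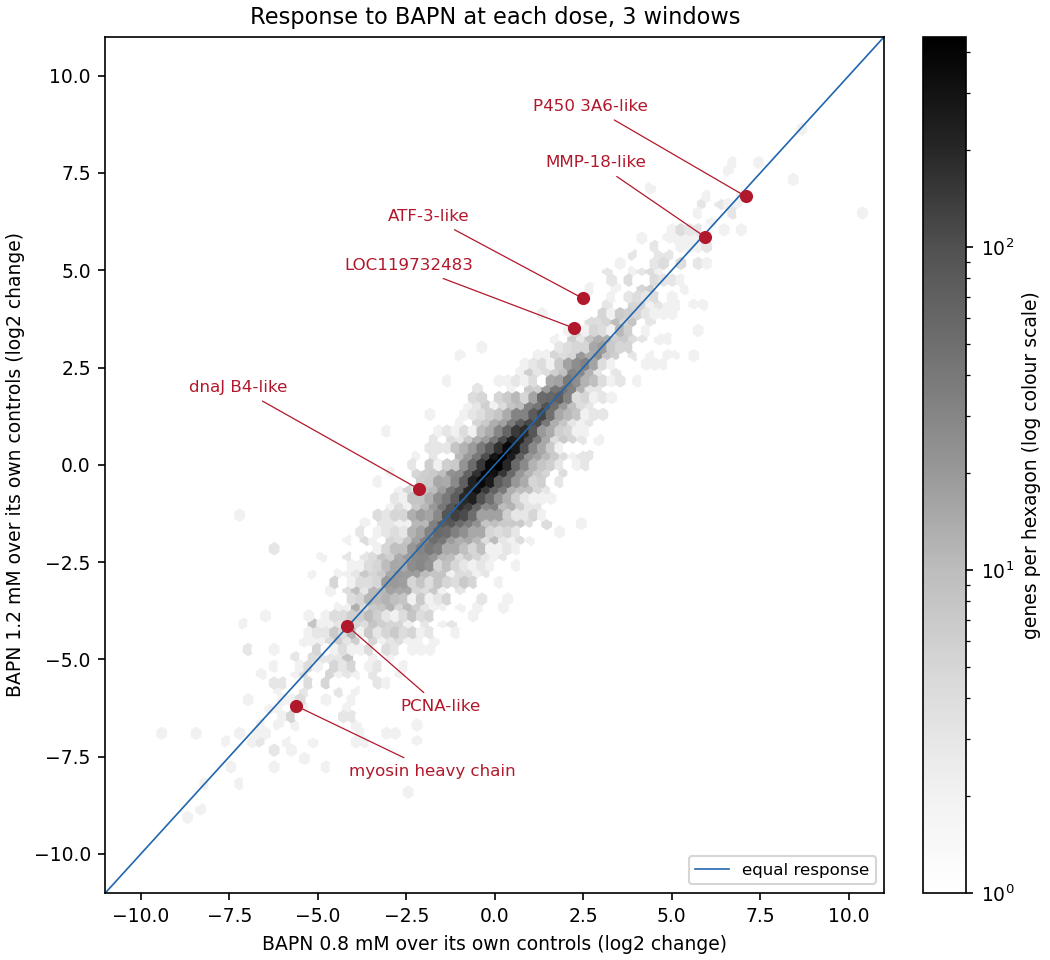
Change in BAPN over its own controls on the log2 scale, at 1.2 mM (vertical axis) and at 0.8 mM (horizontal axis), for 16373 genes binned in hexagons, with 7 genes marked in red and the line of equal response in blue. The dnaJ B4-like gene (-0.63 and -2.14), LOC119732483 (3.51 and 2.24) and the ATF-3-like gene (4.28 and 2.49) lie above the line, and the MMP-18-like and P450 3A6-like genes lie close to it.

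The pair from mid gastrula until day 4 and the recovery pair entered neither of those responses, so genes chosen for their mean BAPN response over both doses in the other 12 libraries could be read in them. In the pair from mid gastrula until day 4, the 4441 tested genes raised by BAPN (27.3% of genes in the 12-library fit were called higher) had a median difference of 0.07, and 60.5% of them were higher at 1.2 mM. The 4503 genes lowered by BAPN (32.4% of that fit were called lower) had a median of -0.09, and 40.6% were higher at 1.2 mM. All 14599 genes had a median of -0.004, with 49.4% higher. For genes raised by 2 or more on the log2 scale, 67.3% of 1092 were higher at 1.2 mM, with a median of 0.15. For genes lowered by as much, 41.3% of 791 were, with a median of -0.15. Each dose has 1 library here, so the shift compares 2 libraries and has no replicate check. In the recovery pair, 62.3% of the raised genes, 56.6% of the lowered genes and 57.2% of all genes were higher after 1.2 mM. For responses of 2 or more 732 of the 1092 raised genes were higher after 1.2 mM, with a median of 0.11, and 390 of the 791 lowered genes, with a median of -0.005, so raised and lowered genes also split between these libraries, which were no longer in BAPN. Genes called between the day 4 and day 2 controls (25.7% higher and 22% lower on day 4 with edgeR) split in the recovery pair as well. Of those tested for dose, 47.9% of the 3466 genes higher on day 4 and 69.2% of the 3457 genes lower on day 4 were higher after 1.2 mM. In the pair from mid gastrula until day 4 these shares were 48.0% and 49.3%. They were 53.3% and 42.8% from blastula until day 2, 39.7% and 59.1% from mid gastrula until day 3, and 52.0% and 38.6% from blastula until day 4. Over all genes tested 49.8%, 49.9% and 47.3% were higher at 1.2 mM in those pairs. The genes that change with day thus split there too, in directions that differed between windows.

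**Figure D5:**
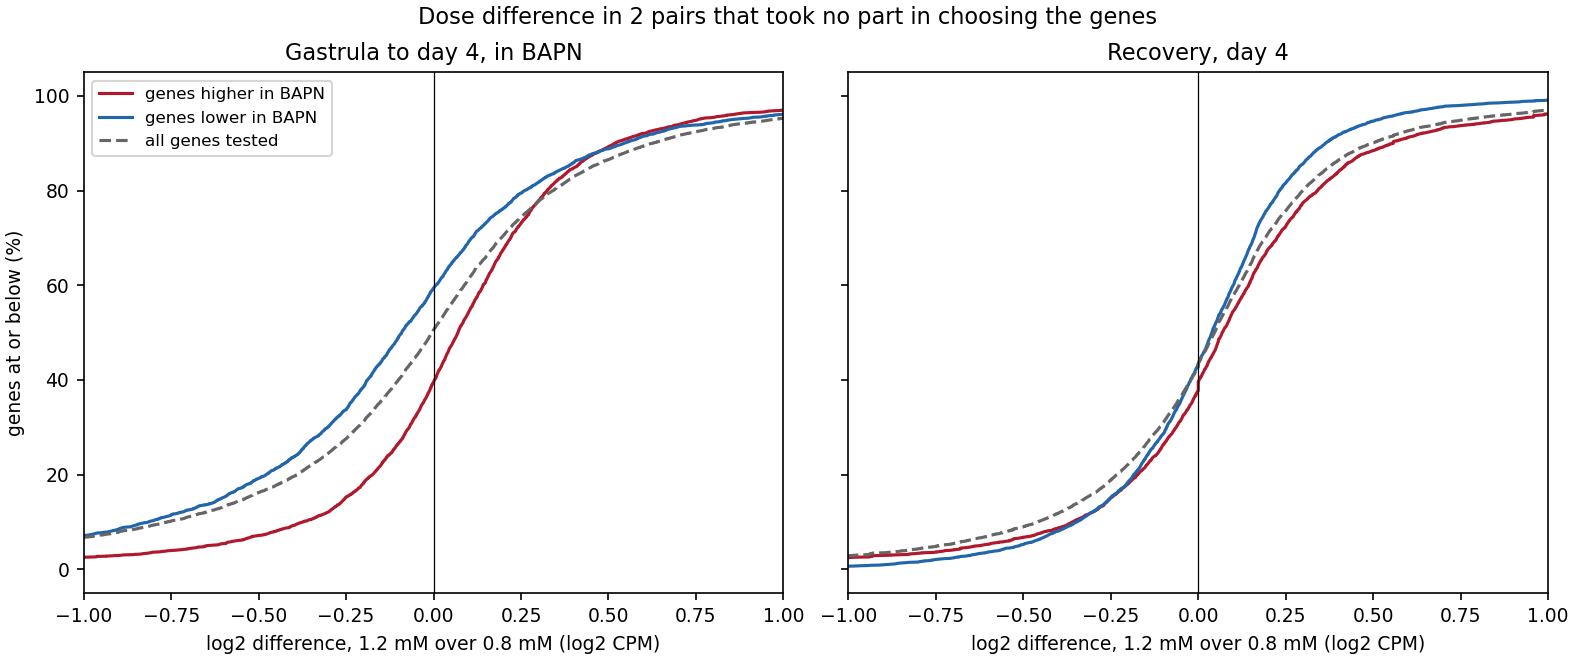
Cumulative share of genes (vertical axis, percent) by the log2 difference of 1.2 mM over 0.8 mM in the pair from mid gastrula until day 4 (left) and in the recovery pair (right), for genes raised by BAPN in the other 12 libraries (red), genes lowered (blue) and all genes tested (dashed); values beyond 1 in either direction lie outside the axis. On the left the raised genes lie to the right of all genes (median 0.07) and the lowered genes to the left (median -0.09).

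Pairs of libraries that received no BAPN give the scale for these differences. Between the controls tied to 1.2 mM and those tied to 0.8 mM, edgeR called 0 of 16373 genes, 213 (1.30%) had an unadjusted p under 0.05, and DESeq2 called 1. That share is smaller than a threshold of 0.05 gives with no difference at all, so the control test was conservative. It comes from another fit and gene set than the 8.06% for dose in BAPN, and the shares cannot be compared directly. Over 14599 genes the SD of the log2 difference within a pair was 0.79, 0.48, 0.86 and 0.74 in the 4 BAPN windows, 0.51 in the recovery pair, and 0.86, 0.39 and 0.45 in the control pairs of days 2, 3 and 4. The median size of a difference was 0.29, 0.23, 0.35 and 0.28 in the 4 BAPN windows, 0.21 in the recovery pair, and 0.30, 0.15 and 0.18 in the control pairs of days 2, 3 and 4. By both measures the BAPN pairs of days 3 and 4 stood above the control pairs of those days, and the day 2 control pair stood above the BAPN pair of day 2. These 14599 genes were filtered on the 8 libraries in BAPN. Over the 5097 genes with a mean log2 CPM of at least 5, the SDs were 0.278, 0.233, 0.364 and 0.245 in the BAPN windows. They were 0.245 in the recovery pair and 0.382, 0.178 and 0.223 in the control pairs. The pair from gastrula until day 4 thus lay close to the day 4 control pair. Across the 14599 genes, the differences of the 4 BAPN windows correlated with each other at r = 0.016 to 0.071, and across the 5097 genes with a mean log2 CPM of at least 5 at r = 0.040 to 0.293. These values describe genes measured in the same libraries, which are not independent.

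The starting stage was compared by setting the dose difference of the blastula windows against that of the mid gastrula windows. With edgeR 0 of 14599 genes were called for this contrast, 917 (6.28%) had an unadjusted p under 0.05, and DESeq2 called 4. In the blastula windows alone 8 genes were called (0.0548%), 4 higher and 4 lower at 1.2 mM, and in the gastrula windows 0, with 721 (4.94%) at an unadjusted p under 0.05. The 8 are named after their values were seen. The 4 higher ones were the dnaJ B4-like gene, LOC119732483, the ATF-3-like gene (1.62 ± 0.18, adjusted p = 0.00838) and the collagen alpha-2(XI)-like gene LOC119738344 (0.79 ± 0.12, adjusted p = 0.0481). The lower ones included the prostaglandin reductase-3-like gene (LOC119736037, -1.12 ± 0.17), a sterol isomerase-like gene (LOC119736973, -0.88 ± 0.14) and a UDP-glucuronosyltransferase 2C1-like gene (LOC119739306, -0.80 ± 0.12), each with an adjusted p of 0.0452. The last was a small subunit ribosomal RNA gene (LOC119733362, -1.25 ± 0.16, adjusted p = 0.0283), and ribosomal RNA took a smaller share of counts at 1.2 mM in both blastula windows, as given above. For none of the 8 did the start stages differ at the threshold, with adjusted p-values of 0.508 to 0.917 for that difference.

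How small a dose difference could be seen depended on the level of a gene. The 95% interval of the difference lay inside a 2-fold change either way for 10158 of 14599 genes (69.6%). This held for 99.6% of genes with a mean log2 CPM of 7 and over, for 92.6% between 3 and 5, for 27.8% between 1 and 3, and for 0.219% below 1. For most well-expressed genes the libraries therefore bounded the dose difference, and for most genes with a mean log2 CPM under 3 they did not exclude a 2-fold difference. The intervals of the lysyl oxidase LOC119735518 and the muscle myosin LOC119735028 hold a 2-fold lower value at 1.2 mM but not a 2-fold higher one, and that of LOC119738367 holds both.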

How the data were processed

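Polyadenylated RNA from pools of whole embryos was sequenced as paired-end stranded libraries, per the labels' protocols. The authors deposited 1 table of raw read counts for 16 libraries and 27818 genes, all whole numbers. No source used here names the aligner, the counter or the strand setting, and overlapping genes are uncertain. Gene IDs, starts and ends matched RefSeq's Pmin_3.0 table for all 27818 genes, and names ending in "-like" are transferred by similarity. Total counts per library set the precision.

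Genes were kept with edgeR's filter (minimum count 10, minimum total 15), which removed 13219 and left 14599. Libraries were scaled by TMM, and edgeR's robust quasi-likelihood test was fitted to the 8 libraries in BAPN with dose and window (3 residual degrees of freedom). The window pairs the libraries, since it is given in the labels. The SE is the log2 difference divided by the square root of F. Controls entered a 12-library fit with dose, BAPN and day (4 residual degrees of freedom), and start stages a fit with 2. The 6 controls alone were fitted by day. Log2 CPM used a prior count of 2. Versions were edgeR 4.0.16 and DESeq2 1.42.0 on R 4.3.3 with limma 3.58.1, and the fits were tested on simulated data. With simulated differences of 1.5, 2 and 4-fold, the dose fit called 47%, 65.7% and 86.6% of the changed genes, and 12 unchanged genes. For dose in BAPN minus controls the shares were 9.09%, 40.3% and 68.7%. Each simulation held 66, 67 and 67 changed genes of these sizes together, drawn above a minimum mean count. The Benjamini-Hochberg threshold is stricter where fewer genes change, so these shares may not hold for data with 2 calls. Named genes were to be called, named, with mean log2 CPM not below 1 and on one side in 4 of 4 windows, which gave the dnaJ B4-like gene alone. A fixed group of genes around BAPN and the germline was added whatever its values. It held the DDX4, nanos 3, lysyl oxidase, BMP1, MMP-18, P450 3A, striated muscle myosin, PCNA and calreticulin genes. Apart from these and the dnaJ B4-like gene, all named genes were chosen after their values were seen. The result of 1 gene is not reported here. Lists are words in product names. The comparison, genes and lists were chosen with earlier results of these data known. Alternatives were another scaling, no filter, non-robust dispersions, DESeq2, leaving out each pair, no window block, and other sets of libraries.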

Additional observations from a re-analysis of the deposited data

Results flagged for a closer look

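Within the 4 windows, the log2 differences of 62 named genes and the medians of 27 lists were checked for a value far from the other 3, and 2 of these 89 sets held one, where chance gives about 1 in 20. The called dnaJ B4-like gene (LOC119722491) differed by 1.03 from mid gastrula until day 4, below the other windows. Calreticulin (LOC119722348) differed by 0.46 from blastula until day 4, where the other windows lay below 0.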

How the results depend on the processing

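The limits are 1 library per dose and window, 3 residual degrees of freedom and low power for weakly expressed genes and for small differences. The 2 calls for dose became 109 with no filter on low counts (56 higher, 53 lower), 62 with DESeq2, 4 with non-robust dispersions, 4 with the recovery pair added, 7 with all 16 libraries, 9 with a filter on the 4 windows (added after seeing the data), and, with 1 pair left out, 3 without blastula until day 2, 4 without gastrula until day 3, 6 without blastula until day 4 and 5 without gastrula until day 4. They became 0 without the window as a replicate block, the only fit of the 15 in which the dnaJ B4-like gene (1.48) was not called; LOC119732483 (1.06) was also not called there, nor in the 3 windows with controls (0.98, added after seeing the data). The 0 calls between control pairs became 20 with no filter, 1 with DESeq2 and 0 to 1 with a day left out (1 without day 3 or day 4). For dose in BAPN minus controls they became 72, 4 and 0 to 1 (1 without day 3 or day 4), and for the start stage 34, 4 and 0 to 186 when a pair was left out, 186 without blastula until day 2, 24 without blastula until day 4 and 3 without gastrula until day 4. Counts of BAPN calls at each dose stayed within 1.5 times under all 8 settings. Direction turned for 5 uncalled genes. When 1 pair was left out, LOC119738367 ran from -0.42 to 1.17, the P450 3A24-like copy LOC119737035 from -0.016 to 0.15, the 3A29-like copy LOC119725275 from -0.0044 to 0.13, myosin LOC119735028 from -0.32 to 0.38 and PCNA LOC119732257 from -0.25 to 0.19. In the 3 windows with controls the 3A24-like copy stood at -0.040 and PCNA at 0.091, and PCNA at 0.012 without the block. The causes were not tested.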
